A study of Macaca mulatta with 28 samples.

Results

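The non-visual arrestins and the G protein-coupled receptor kinases were followed in the ventral tegmental area (VTA) of 28 male rhesus macaques by bulk RNA sequencing. Members were the rows of the deposited table whose gene symbol was ARRB1, ARRB2, GRK2, GRK3, GRK4, GRK5 or GRK6. Of the 7 symbols, 6 had a row among 16885 transcripts with a symbol, 5 passed the filter on low counts (at least 5 counts in at least 3 animals, which 13769 transcripts met), and GRK4 was not analysed here. Each row holds the estimated count of a single Ensembl transcript per gene, so a gene's remaining transcripts do not enter its value. ARRB1, GRK2, GRK3 and GRK6 had counts in every animal and are called the quantified members.

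All animals were wild-type adult males, and the drinkers, once drinking had been induced by a food-pellet schedule, had open access to ethanol for 12 months. That period was followed by 3 abstinence periods, each of the first 2 followed by 3 months of renewed access, and tissue was taken after the last of them, 30 days into abstinence. The labels sort the 17 drinkers by their drinking into 1 low, 2 binge, 5 heavy and 9 very heavy drinkers, and give 11 controls, which drank no ethanol and were either matched to a drinker for calories or housed alongside. Animals came in 2 cohorts, with 8 drinkers and 8 controls in cohort 1 and 9 drinkers and 3 controls in cohort 2. Drinking category and cohort were not balanced, since 4 of the 5 heavy drinkers were in cohort 1 and 6 of the 9 very heavy drinkers in cohort 2. The study states that animals were assigned at random to drinking or to either kind of control. The drinking categories follow the drinkers' own intake and were not assigned.

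Receptor kinases phosphorylate G protein-coupled receptors that are occupied by agonist. The arrestins then bind the phosphorylated receptor, uncouple it from its G protein, bring it to clathrin-coated pits and carry signalling of their own to kinases such as ERK. GRK2 and GRK3 reach the membrane through G protein beta-gamma subunits, whereas GRK4, GRK5 and GRK6 are anchored there by lipids and basic residues. In the midbrain the receptors concerned include the dopamine D2 autoreceptor and the kappa and mu opioid receptors, and the study asked whether kappa opioid control of dopamine release after drinking was related to expression of genes such as the non-visual arrestins.

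The libraries held 12303914 to 27338669 estimated counts each, of which 36.4% to 60.6% fell on mitochondrial transcripts. The dopamine neuron markers TH (tyrosine hydroxylase, 83 to 18843 counts) and SLC6A3 (the dopamine transporter, 80 to 18395) were present in every animal and varied widely between dissections, while NR4A2 was at 0 in 6 animals, ALDH1A1 in 7, PITX3 in 2 and EN1 in 1. A value of 0 in the table does not show that a gene was silent, since SLC1A2, an abundant astrocyte glutamate transporter, was listed at 0 in all 28 animals. Fewer cells of a type and less RNA per cell cannot be told apart in dissected tissue.

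On the Mmul_10 genome, ARRB1 (beta-arrestin 1) lies at chr14:68302360-68398044 and GRK2, the kinase that couples beta-gamma release to receptor desensitization, at chr14:7239881-7260433, both on the minus strand. GRK3, the close relative of GRK2, lies at chr10:25844075-26007820 on the minus strand, and GRK6 at chr6:174917708-174934948 on the plus strand. ARRB2 (beta-arrestin 2) lies at chr16:4535669-4546632 and GRK5 at chr9:119689388-119941563, both on the plus strand. The 250 bases before the annotated RefSeq start of each quantified member are shown, read from the genome 5′ to 3′ on the strand of the gene. Where the counted transcript starts was not determined. Capitals mark the GC box GGGCGG, the core letters of the Sp1 site, on either strand.
ARRB1: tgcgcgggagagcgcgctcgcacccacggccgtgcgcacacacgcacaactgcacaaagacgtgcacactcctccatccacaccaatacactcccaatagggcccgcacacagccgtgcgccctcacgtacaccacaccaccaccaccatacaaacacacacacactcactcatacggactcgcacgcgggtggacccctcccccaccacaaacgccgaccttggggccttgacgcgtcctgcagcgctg
GRK2: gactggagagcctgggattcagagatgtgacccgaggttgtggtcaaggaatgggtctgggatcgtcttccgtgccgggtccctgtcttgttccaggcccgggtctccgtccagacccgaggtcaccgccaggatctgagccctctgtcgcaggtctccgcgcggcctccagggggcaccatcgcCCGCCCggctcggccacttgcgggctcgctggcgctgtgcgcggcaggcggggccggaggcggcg
GRK3: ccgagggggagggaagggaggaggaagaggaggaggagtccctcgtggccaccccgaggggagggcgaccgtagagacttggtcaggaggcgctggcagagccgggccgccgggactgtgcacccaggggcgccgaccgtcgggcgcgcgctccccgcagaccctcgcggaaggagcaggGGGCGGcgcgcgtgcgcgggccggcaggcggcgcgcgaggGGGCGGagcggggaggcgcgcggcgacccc
GRK6: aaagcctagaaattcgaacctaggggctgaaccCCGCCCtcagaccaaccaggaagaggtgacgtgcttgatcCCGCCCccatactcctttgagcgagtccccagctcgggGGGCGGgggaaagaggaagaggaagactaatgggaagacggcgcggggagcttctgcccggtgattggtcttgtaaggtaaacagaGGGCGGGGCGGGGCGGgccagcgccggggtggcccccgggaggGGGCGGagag
The windows are chr14:68398045-68398294 for ARRB1, chr14:7260434-7260683 for GRK2, chr10:26007821-26008070 for GRK3 and chr6:174917458-174917707 for GRK6.

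The GC box occurred 0 times in the ARRB1 window, 1 time in that of GRK2, 2 times in that of GRK3 and 7 times in that of GRK6, where overlapping matches were each counted. Of 20782 windows of the same length before protein-coding genes, 43.7% held it. CCAAT was found 2 times before ARRB1 and 1 time before GRK6 (31.0% of all windows), and TGACG, part of the cAMP response element, 1 time before each of these genes (19.8%). TATAAA (9.85% of all windows) and CACGTG (6.45%) were in none of the 4 windows on either strand. All 4 windows were rich in G and C, at 64.0% in ARRB1, 70.4% in GRK2, 79.2% in GRK3 and 65.2% in GRK6, against a median of 57.2% over all windows. These are matches of letters in fixed windows, and genes such as ARRB1 with several annotated starts have other such windows.

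GRK2 was the most abundant quantified member on every scale. Its median was 140.9 CPM (counts scaled to a common library size by TMM), against 28.1 for ARRB1, 15.7 for GRK3 and 7.47 for GRK6. Divided by the length of its 1 RefSeq mRNA (3469 bases), the median level of GRK2 was 40.6 CPM per kilobase. With the longest and the shortest RefSeq mRNA of each gene, ARRB1 came to 3.54 to 13.9 CPM per kilobase, GRK3 to 1.74 to 4.965 and GRK6 to 2.02 to 3.27. GRK2 therefore stood above the others whichever model was used, while the ranges of GRK3 and GRK6 overlapped each other and that of ARRB1 overlapped that of GRK3. Which RefSeq model matches the transcript in the table was not determined.

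Within single animals, log2 CPM of ARRB1 was below that of GRK2 in 28 of 28, by 2.43 at the median (range of ARRB1 minus GRK2 -3.02 to -1.98). ARRB1 exceeded GRK3 in 27 of 28 animals and GRK6 in 28 of 28, not corrected for length. GRK2 and ARRB1 were also the steadiest of the 4, with a coefficient of variation over the 28 animals of 13.3% and 14.7%, against 24.0% for GRK3 and 33.4% for GRK6.

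**Figure D1:**
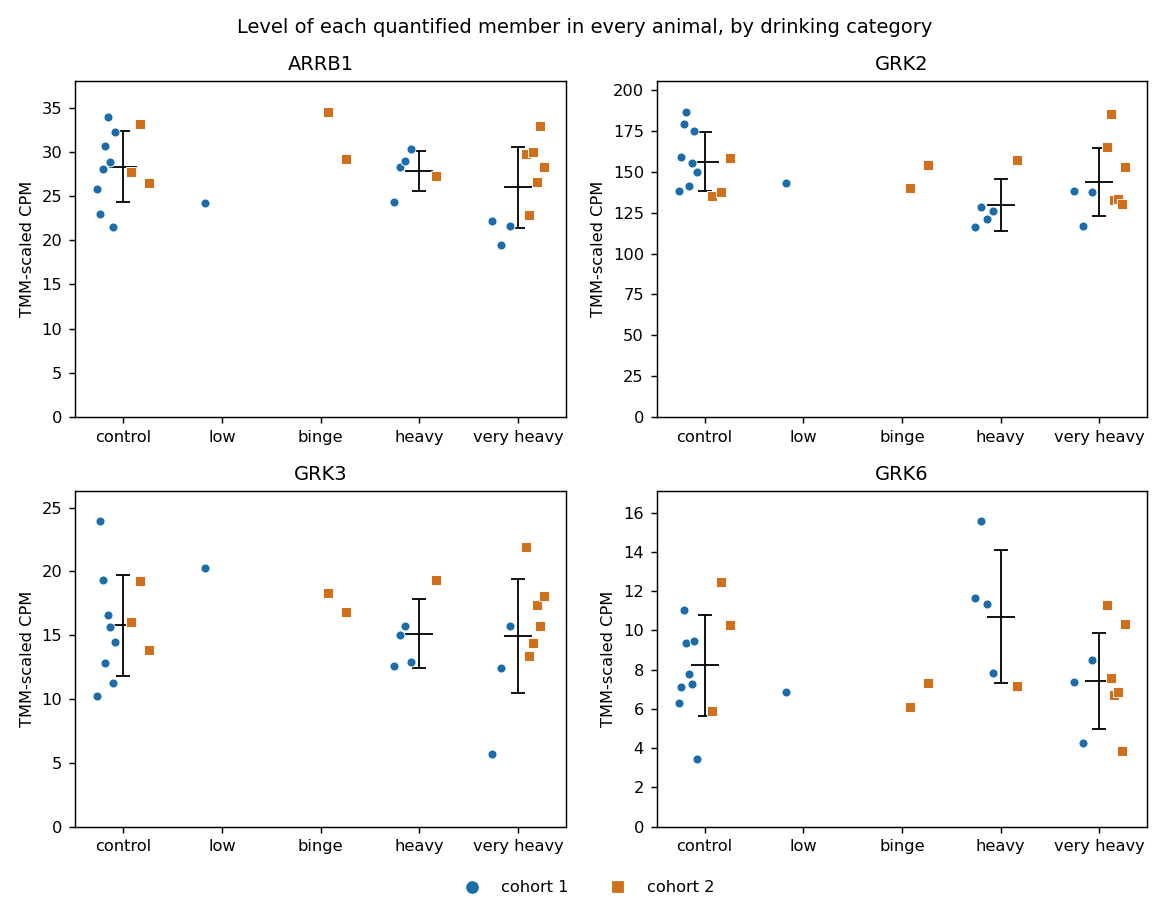
Level of ARRB1, GRK2, GRK3 and GRK6 in every animal (TMM-scaled CPM, linear axes from 0) by drinking category, with circles for cohort 1 and squares for cohort 2. Bars give the mean ± SD of categories with more than 2 animals. The 4 heavy drinkers of cohort 1 sit at 116.5 to 128.4 CPM of GRK2, below all controls, and in all 4 genes the heavy and very heavy drinkers overlap with the controls as groups.

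GRK2 values were lower in drinkers than in controls in cohort 1, short of the adjusted threshold in edgeR, and the mean difference in cohort 2 had the opposite sign. Over all animals the level ran from 135.4 to 186.9 CPM in the 11 controls (median 155.7) and from 116.5 to 185.5 CPM in the 17 drinkers (median 137.4). The groups overlapped, although 8 of the 17 drinkers lay below every control and 14 lay below the control median. The log2 difference was -0.16 ± 0.07 (SE, 95% interval -0.30 to -0.02, n = 17 and 11), with an unadjusted p of 0.0285 and an adjusted p of 1.0 in edgeR's quasi-likelihood test with Benjamini-Hochberg adjustment over 13769 transcripts. In this comparison 0.0% of transcripts passed an adjusted p of 0.05 in edgeR, and 4.57% (629) had an unadjusted p under 0.05. DESeq2 called 11 transcripts and limma voom 0, GRK2 not among them. With cohort as a term, GRK2 differed by -0.19 ± 0.07 (SE, 95% interval -0.33 to -0.04). The unadjusted p was 0.0125 and the adjusted p 0.522 in edgeR. That fit called 0 of 13769 transcripts and had 972 at an unadjusted p under 0.05.

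In cohort 1 the 8 controls held GRK2 at 138.4 to 186.9 CPM (median 157.5) and the 8 drinkers at 116.5 to 143.5 CPM (median 127.2). All 8 drinkers lay below the median of the controls and 6 of 8 below every control. The log2 difference was -0.32 ± 0.07 (SE, 95% interval -0.48 to -0.16), or 0.801-fold, with an unadjusted p of 0.000489 that ranked 49 of 13086 transcripts and an adjusted p of 0.127 in edgeR. Within cohort 1, 0.0382% of transcripts (5) passed the adjusted threshold and 10.2% had an unadjusted p under 0.05. DESeq2, which called 236 transcripts on the same animals, gave GRK2 a log2 difference of -0.30 and an adjusted p of 0.00554, so that the call depended on the tool. Leaving out each of the 16 animals in turn kept the log2 difference between -0.35 and -0.29.

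In cohort 2 the 3 controls held GRK2 at 135.4 to 158.5 CPM and the 9 drinkers at 130.6 to 185.5 CPM, with drinkers on both sides of the controls. The log2 difference was 0.07 ± 0.11 (SE, 95% interval -0.17 to 0.30), and with 3 controls the interval is wide. In cohort 2, 0.0% of 12785 transcripts passed the adjusted threshold and 3.76% had an unadjusted p under 0.05. The difference between the cohorts' effects, tested as an interaction, was 0.39 ± 0.13 (SE, 95% interval 0.12 to 0.65), with an unadjusted p of 0.00552 and an adjusted p of 0.316 in edgeR. That test called 0.0145% of transcripts and had 9.62% at an unadjusted p under 0.05, so the difference between cohorts in GRK2 did not pass.

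The GRK2 values moved with the base composition that each library favoured. GC skew, the median log2 deviation of the 25% of transcripts richest in GC minus that of the poorest 25%, ran from -0.03 to 0.40 in the controls of cohort 1 and from -0.27 to -0.01 in its drinkers. In cohort 2 it ran from -0.11 to 0.04 in controls and from -0.13 to 0.19 in drinkers. The longest RefSeq mRNA of GRK2 is 63.5% G and C, which is at or above 92.5% of 11184 transcripts, whereas that of GRK3 is 43.0%. Pearson's r of log2 CPM with GC skew was 0.70 for GRK2 over the 28 animals (0.77 in cohort 1 and 0.48 in cohort 2), 0.30 for ARRB1 (0.51 in cohort 1 and -0.59 in cohort 2), 0.01 for GRK3 and 0.08 for GRK6, given as a description because the measures come from the same libraries.

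With the GC trend of each library removed before the fit, a setting chosen after the data were seen, the cohort 1 difference of GRK2 was -0.09 ± 0.08 (SE, 95% interval -0.26 to 0.08), with an unadjusted p of 0.263 and an adjusted p of 0.975 in edgeR. The difference between all drinkers and controls was -0.04 ± 0.06 in that fit, and the interaction 0.14 ± 0.13. Without the correction, the 25% of transcripts richest in GC had a median log2 difference of -0.18 in cohort 1 and the poorest 25% one of 0.13, and 30.4% of the richest lay at or below GRK2. By construction the correction also takes out any difference between groups that follows GC content.

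Neuron markers differed by drinking in the opposite direction to GRK2 in each cohort, whereas 2 of 3 glutamate neuron markers in each cohort went with GRK2. Of SNAP25, SYT1, NEFL, NEFM, STMN2 and RBFOX3, 5 passed the filter over all animals, and SYT1 was at 0 in 24 animals and RBFOX3 in 27. In drinkers against controls, 4 of 4 tested were higher in cohort 1 (median log2 difference 0.62, 2 at an unadjusted p under 0.05) and 4 of 4 lower in cohort 2 (median -0.62, 2 at an unadjusted p under 0.05), and the interaction was negative for 5 of 5 (median -1.24, 3 at an unadjusted p under 0.05), none of them called. The medians over all transcripts were -0.01, 0.01 and 0.04 in these comparisons. The neuron score, the mean z-score of the 5 markers that passed, ran from -1.56 to 0.58 in the controls and from -0.38 to 1.46 in the drinkers of cohort 1, and from -0.08 to 0.81 and from -0.83 to 0.81 in those of cohort 2. Over single animals, r of GRK2 with this score was -0.36 in cohort 1 and -0.22 in cohort 2. GABA neuron markers were higher in drinkers for 3 of 3 in cohort 1 and lower for 3 of 3 in cohort 2. Of 3 glutamate neuron markers, 2 were lower in cohort 1 (median -0.55) and 2 higher in cohort 2 (median 0.31). Their interaction was positive for 2 of 3 (median 1.17). Of 6 oligodendrocyte markers, 5 were lower in cohort 1 (median -0.27) and 5 higher in cohort 2 (median 0.20). Dopamine neuron markers were lower for 7 of 9 in each cohort. None of these had an unadjusted p under 0.05 by edgeR in either cohort. The part of these cell type markers in the GRK2 difference was not tested.

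**Figure D2:**
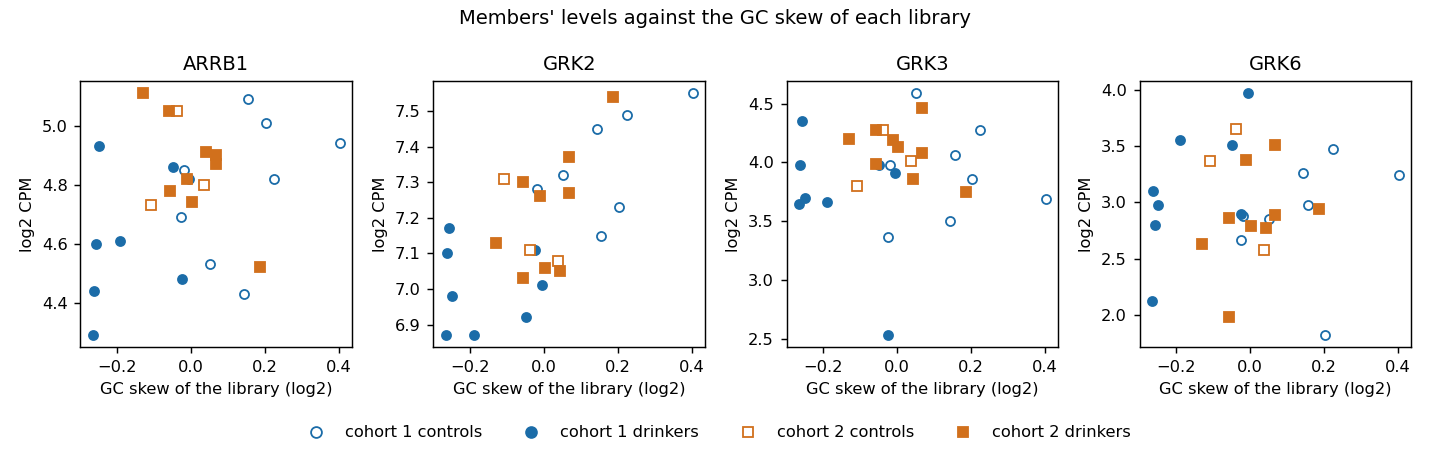
Log2 CPM of each quantified member (vertical axis) against the GC skew of its library (horizontal axis, log2), with circles for cohort 1, squares for cohort 2, open symbols for controls and filled symbols for drinkers. GRK2 follows the skew (r = 0.70), with filled circles at the lower left and open circles at the upper right, and GRK3 (r = 0.01) and GRK6 (r = 0.08) do not.

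By drinking category, GRK2 was at 116.5, 121.0, 126.0, 128.4 and 157.2 CPM in the 5 heavy drinkers. The 4 low values were the animals of cohort 1, each below all 11 controls, and the high value was the heavy drinker of cohort 2. Heavy drinkers differed from controls by -0.27 ± 0.10 on the log2 scale (95% interval -0.46 to -0.07), with an unadjusted p of 0.00937 and an adjusted p of 0.65 in edgeR, in a comparison with 0.0% of transcripts called (54 in DESeq2, no quantified member among them) and 6.77% at an unadjusted p under 0.05. The value was -0.12 ± 0.09 with the GC trend removed. Very heavy drinkers ranged from 117.1 to 185.5 CPM (median 137.4) and differed from controls by -0.12 ± 0.08, with 4 of 9 below every control (0.0% of transcripts called in edgeR, 28 transcripts in DESeq2, 4.47% at an unadjusted p under 0.05). The low drinker had 143.5 CPM and the 2 binge drinkers 140.2 and 154.5 CPM, all within the range of the controls.

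ARRB1 values of drinkers and controls covered nearly the same range. They ran from 21.5 to 34.0 CPM in the 11 controls (median 28.1) and from 19.5 to 34.5 CPM in the 17 drinkers (median 28.2), with 1 drinker below and 1 above every control. The log2 difference was -0.06 ± 0.09 (SE, 95% interval -0.24 to 0.11), which bounds a mean difference between 0.848-fold and 1.08-fold, with an adjusted p of 1.0 in edgeR. Within cohorts it was -0.16 ± 0.12 in cohort 1 and 0.00 ± 0.12 in cohort 2.

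The 5 heavy drinkers had ARRB1 at 24.3, 27.3, 28.2, 28.9 and 30.3 CPM, and the 9 very heavy drinkers at 19.5 to 32.9 CPM (median 26.6). The 3 very heavy drinkers of cohort 1 lay at 19.5 to 22.2 CPM, below the 4 heavy drinkers of that cohort, while the 6 very heavy drinkers of cohort 2 lay at 22.9 to 32.9 CPM. Very heavy drinkers differed from controls by -0.12 ± 0.10 on the log2 scale, and by -0.22 ± 0.10 (unadjusted p = 0.0384, adjusted p = 0.724 in edgeR) with cohort as a term. ARRB1 stood 0.17 ± 0.08 higher in cohort 2 than in cohort 1 with drinking as a term (95% interval -0.01 to 0.34, adjusted p = 0.527 in edgeR). The comparison of cohorts called 0.0436% of transcripts, with 9.8% at an unadjusted p under 0.05, and no member was among those called.

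GRK3, the other kinase recruited by beta-gamma subunits, showed no difference by drinking that passed the test. It ran from 10.2 to 23.9 CPM in controls (median 15.7) and from 5.675 to 21.9 CPM in drinkers (median 15.7). The log2 difference was -0.01 ± 0.15 (SE, 95% interval -0.31 to 0.29), so that a mean difference between 0.804-fold and 1.22-fold was within the error, and its sign depended on single animals. The 5 heavy drinkers had 12.6, 12.9, 15.0, 15.7 and 19.4 CPM. The lowest of all values was in 1 very heavy drinker of cohort 1, at 91 counts, and the remaining 8 very heavy drinkers lay within the range of the controls. GRK3 was 0.24 ± 0.15 higher in cohort 2 (95% interval -0.06 to 0.54, adjusted p = 0.647 in edgeR), and 0.16 higher without that very heavy drinker of cohort 1.

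GRK6, a membrane-bound kinase that acts on dopamine receptors among others, was the least abundant quantified member before length correction and the most variable. It ran from 3.44 to 12.5 CPM in controls (median 7.80) and from 3.86 to 15.6 CPM in drinkers (median 7.36), and the log2 difference was 0.01 ± 0.19 (SE, 95% interval -0.39 to 0.41). The 5 heavy drinkers had 7.17, 7.82, 11.3, 11.7 and 15.6 CPM. The 9 very heavy drinkers had 3.86 to 11.3 CPM (median 7.36), all below the median of the heavy drinkers and 4 of them below every heavy drinker. Very heavy drinkers differed from heavy drinkers by -0.53 ± 0.26 on the log2 scale (95% interval -1.07 to 0.01), with an unadjusted p of 0.0521 and an adjusted p of 0.766 in edgeR. With the GC trend removed it was -0.58 ± 0.26 (95% interval -1.11 to -0.05), with an unadjusted p of 0.0336 and an adjusted p of 0.701. With the neuron score, GRK6 had r = 0.39 (permutation, adjusted p = 0.329), with 0.53 in cohort 1 and 0.10 in cohort 2. Without the 2 animals farthest from the median of that score, r was 0.15. Of the neuron markers, 5 of 5 were lower in very heavy than in heavy drinkers (median log2 difference -0.70, 1 at an unadjusted p under 0.05). The part of these markers in the GRK6 difference in the same comparison was not tested. That comparison had 0.0% of transcripts called in edgeR (56 in DESeq2) and 6.51% at an unadjusted p under 0.05, and the other quantified members differed in it by -0.10 for ARRB1, 0.15 for GRK2 and -0.01 for GRK3.

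The drinker effects on GRK6 had opposite signs in the cohorts, at 0.25 ± 0.27 in cohort 1 and -0.35 ± 0.29 in cohort 2. The difference of -0.60 ± 0.41 between them did not pass, with an adjusted p of 0.74 in edgeR. It was -0.37 without 1 control of cohort 2. Heavy drinkers stood 0.38 ± 0.25 above controls (95% interval -0.14 to 0.90), and 0.21 above them without 1 heavy drinker of cohort 1, the one with 15.6 CPM.

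**Figure D3:**
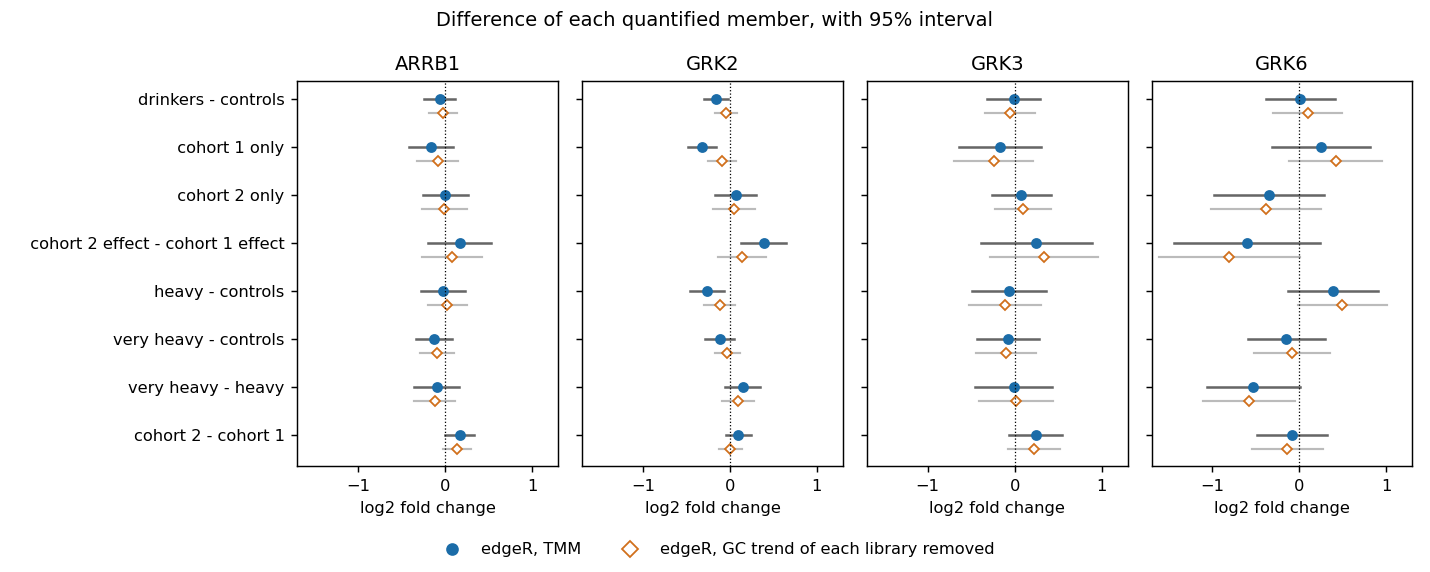
Log2 fold change (horizontal axis) of each quantified member in 8 comparisons, as points with 95% intervals, from edgeR with TMM scaling (filled circles) and with the GC trend of each library removed (open diamonds). The intervals of GRK2 that lie off 0 (all drinkers, cohort 1, the difference between cohorts, and heavy drinkers) cross 0 in the corrected fit, for ARRB1 and GRK3 every interval crosses 0 in both, and for GRK6 the interval of very heavy against heavy drinkers crosses 0 before the correction and lies below it after.

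ARRB2 and GRK5 were listed at 0 in most animals. The ARRB2 transcript was above 0 in 5 of 28 animals, at estimated counts of 25.1 and 3.07 in 2 controls of cohort 1, 9.25 in a heavy drinker of cohort 1, 2.43 in a binge drinker and 1.35 in a very heavy drinker of cohort 2. GRK5 was above 0 in 5 of 28, at 57.8 in a control of cohort 1, 20.1 in a control of cohort 2, 61.3 and 29.6 in 2 heavy drinkers of cohort 1 and 59.7 in a binge drinker. Each gene was thus detected in 3 of 17 drinkers and 2 of 11 controls. A control and a heavy drinker of cohort 1 had counts of both. No fold change is given for either gene, because the value follows a single listed transcript and was 0 in 23 animals.

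No pair of members was called as varying together across animals. Among the 10 pairs of the 5 members that passed the filter, 0 were called by permutation tests of Pearson's r (100000 resamples, two-sided, Benjamini-Hochberg over the pairs), and 0 had an unadjusted p under 0.05. The largest of the 6 pairs of quantified members was ARRB1 with GRK3, at r = 0.36 (permutation, adjusted p = 0.375) and Spearman's rho = 0.30 (adjusted p = 0.543), with r = 0.24 in cohort 1, 0.47 in cohort 2 and 0.28 without the 2 animals farthest from the median of ARRB1. As background, 18.4% of 11184 transcripts with a GC value and a mean of at least 10 counts had an r with ARRB1 at least that far from 0. The kinases GRK2 and GRK3 gave r = 0.17, and GRK2 and GRK6 r = 0.15.

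Against 8 cell type marker scores, the mitochondrial share and the total count, 0 of 50 pairs passed after adjustment and 6 had an unadjusted p under 0.05. The astrocyte score is the mean z-score of GFAP (2 to 1102 counts), AQP4 (at 0 in 18 animals), SLC1A3 and GJA1. ARRB1 and GRK3 had their largest r with this score. For ARRB1 it was r = 0.56 (permutation, adjusted p = 0.1) with rho = 0.51 (adjusted p = 0.323), r = 0.36 in cohort 1 and 0.72 in cohort 2, and r = 0.46 without the 2 farthest animals. For GRK3 it was r = 0.53 (permutation, adjusted p = 0.101) with rho = 0.47 (adjusted p = 0.337), r = 0.48 in cohort 1 and 0.52 in cohort 2, and r = 0.54 without the 2 farthest animals. Of 11184 transcripts with a GC value and a mean of at least 10 counts, 1.84% were as far from 0 as ARRB1 with this score. The share as far from 0 as GRK3 was 3.15%. With cohort means subtracted, r with this score was 0.48 for ARRB1 and 0.44 for GRK3 (permutation, adjusted p = 0.342 for each). GRK6 had its largest r with the mitochondrial share, at -0.41 (permutation, adjusted p = 0.329), and GRK2 with the neuron score, at -0.33 (adjusted p = 0.481). With the dopamine neuron score r was 0.35 for ARRB1, 0.33 for GRK3, 0.15 for GRK6 and -0.13 for GRK2.

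**Figure D4:**
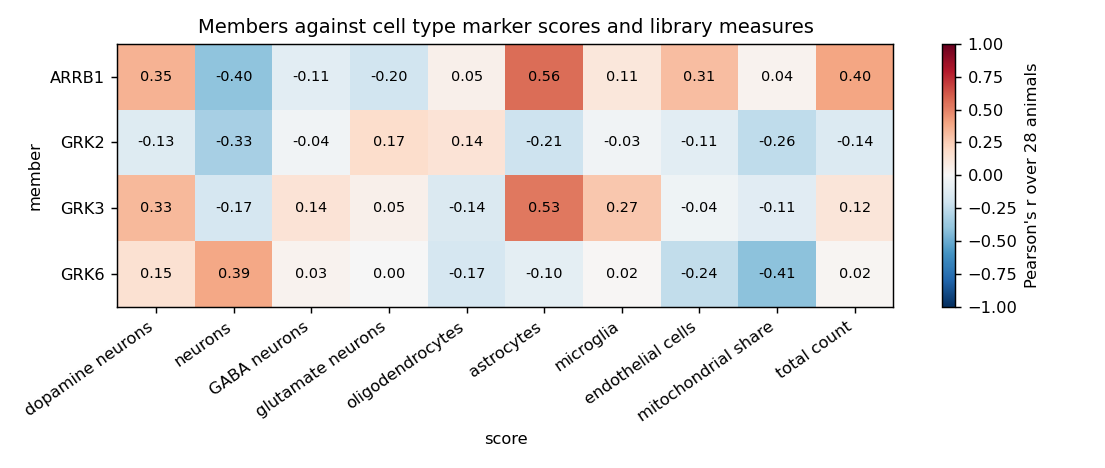
Pearson's r over 28 animals (colour and printed value) between log2 CPM of each quantified member (rows) and 8 cell type marker scores, the mitochondrial share of counts and the total count (columns). The astrocyte column holds the 2 largest values, for ARRB1 and GRK3, and 0 pairs passed after adjustment.

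The transcripts most like each member, by Pearson's r of log2 CPM over the 28 animals among 7636 others with at least 10 counts in every animal, differed between members. They were ENTREP1, ARHGEF4 and NUP210 for ARRB1 (r = 0.78, 0.76 and 0.75), PLPPR3, CBX7 and THRA for GRK2 (r = 0.83, 0.76 and 0.76) and CLSTN1, ATP13A4 and RCAN3 for GRK3 (r = 0.78, 0.77 and 0.75). For GRK6 they were TDRKH, RRP12 and CUL2 (r = 0.75, 0.69 and 0.68). The 3 transcripts most like GRK2 had an r of 0.72 to 0.85 within the cohorts, the same animals by which they were picked. Their RefSeq mRNAs were 60.2% to 65.6% G and C. For ARRB1, ARHGEF4 was at 60.5% and NUP210 at 57.9%. The range was 45.6% to 59.1% for GRK3, 37.8% to 58.1% for GRK6 and 51.3% to 66.6% for GRK5. The transcripts most like GRK3 had an r of 0.80 to 0.85 in cohort 1 and of 0.25 to 0.38 in cohort 2. For GRK5, whose values are mostly 0, they were SDHAF2, NT5C and TRPM4 (r = 0.57, 0.57 and 0.55).

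Genes that act with arrestins and receptor kinases were described from 6 lists that hold 67 genes, 63 of them in the table and 56 tested. None was called by edgeR in any of the 6 comparisons over all animals, nor within either cohort (54 tested in cohort 1 and 49 in cohort 2). In drinkers against controls, 5 of 56 (8.93%) had an unadjusted p under 0.05, 2 higher and 3 lower, beside 4.57% of all transcripts, and the median log2 difference was -0.02 against 0.00 over all transcripts tested. In cohort 1 alone it was 7 of 54 (13.0%), beside 10.2% of all transcripts, and for the interaction 9 of 56 (16.1%), beside 9.62%. OPRM1 and MAPK10, above 0 in only 7 and 5 animals, are counted both among the 5 and among the 7. MAPK10 is also among the 9. These shares thus rest partly on sparse counts and are not read as a result about the lists.

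Among the alpha-arrestins, a distant family that includes regulators of receptor ubiquitination, ARRDC3 had the lowest p of 5 tested. It stood 0.38 ± 0.15 higher in drinkers on the log2 scale (unadjusted p = 0.014, adjusted p = 0.894 in edgeR), with 0.48 ± 0.22 in cohort 1 and 0.36 ± 0.14 in cohort 2. ARRDC2 was at -0.24 ± 0.22. Among 15 clathrin pathway genes tested, DNM2 (dynamin 2, which pinches off vesicles) was at -0.58 ± 0.28 (unadjusted p = 0.0455) and AP2A1, a subunit of the adaptor that binds arrestins, at -0.11 ± 0.06. DNM2 was at -1.05 ± 0.29 in cohort 1 and at -0.20 ± 0.51 in cohort 2. Among 12 kinase regulators tested, GIT1, a partner of receptor kinases that affects receptor internalization, was at -0.20 ± 0.09 (unadjusted p = 0.031), with -0.35 ± 0.12 in cohort 1 and 0.05 ± 0.12 in cohort 2, and GNB5 was above 0 in 13 of 28 animals.

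Of 8 receptors tested, OPRM1 (the mu opioid receptor) had the lowest p, but its counts passed the filter through the drinkers alone and its p is not given. It was above 0 in 7 of 17 drinkers and 0 of 11 controls, at no more than 23 counts. CNR1 (the CB1 cannabinoid receptor) was at -0.31 ± 0.37 in all drinkers against controls, at 0.37 ± 0.44 in heavy drinkers and at -1.13 ± 0.38 in very heavy drinkers against controls. Very heavy drinkers differed from heavy drinkers in it by -1.50 ± 0.45 (unadjusted p = 0.00237, adjusted p = 0.635 in edgeR). Among 14 arrestin signalling partners tested, the 2 lowest p belonged to kinases with sparse counts, for which no p is given, MAPK10 (above 0 in 1 of 17 drinkers and 4 of 11 controls) and MAP2K2 (5 of 17 and 2 of 11). Of the visual family, whose arrestin and kinase serve photoreceptors, SAG was above 0 in 11 of 28 animals with at most 32 counts and GRK7 in 9 with at most 10.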

How the data were processed

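RNA was extracted from VTA tissue of 28 animals (AllPrep kit), made into libraries with a Nugen mRNA kit and sequenced in pairs. The authors trimmed reads with Trim Galore 0.6.7 and deposited estimated counts per transcript from Salmon 1.9.0 against Mmul_10; their notes also name DESeq2 1.36.0. The table has 1 transcript per gene, and how that transcript was chosen is not given in the sources used here. Depth was 12303914 to 27338669 counts. Drinking categories came from the labels and cohorts from the study's source data. No label names separate preparations of an animal, so each animal was 1 replicate.

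Counts were rounded to whole numbers, and transcripts that reached 5 counts in 3 or more animals were tested with edgeR 4.0.16 (quasi-likelihood, TMM, Benjamini-Hochberg over all transcripts, threshold 0.05) in R 4.3.3. Categories were contrasted in 1 fit over all animals, with low and binge drinkers sharing a mean. Alternatives were DESeq2 1.42.0, limma 3.58.1 voom, other size factors and filters, cohort as a term, each cohort alone, each animal left out, and removal of a lowess trend on GC content (96.4% of transcripts had a value). CPM are TMM-scaled, and log2 CPM used a prior count of 2. Correlations used permutation tests with 100000 resamples. Gene positions, mRNA lengths and upstream windows came from RefSeq on Mmul_10. The fits were tested on simulated data. Members and gene lists were chosen with earlier results of these data known. Named were all 7 members, the 2 genes of each list with the lowest p in drinkers against controls, and the 3 transcripts most like each member that passed the filter.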

Additional observations from a re-analysis of the deposited data

Results flagged for a closer look

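GRK3 in 1 very heavy drinker of cohort 1 stood far from the other animals of its groups. Its log2 CPM was 2.53 (5.675 CPM, 91 counts), and the next lowest value was 3.65, both among the 9 very heavy drinkers and among the 8 drinkers of cohort 1. The gap was 0.58 and 0.62 of the range of these groups, above Dixon's critical values of 0.493 and 0.526. The same animal had 22.2 CPM of ARRB1, 138.5 CPM of GRK2 and 7.36 CPM of GRK6, within the range of the other animals. In all, 20 groups of values were examined, and chance flags about 1 in 20 such groups.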

How the results depend on the processing

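No quantified member passed an adjusted p of 0.05 in the edgeR fits, nor in limma voom, which was run for drinkers against controls, cohorts and the interaction over all animals. In DESeq2 only GRK2 did, in cohort 1 alone. Leaving out single animals of all 28 gave 0 calls in each comparison of drinking groups, 0 to 8 transcripts between cohorts and 0 to 4 for the interaction. DESeq2 called 11 transcripts in drinkers against controls, 28 in very heavy drinkers against controls, 54 in heavy drinkers against controls, 56 in very heavy against heavy drinkers, 121 between cohorts and 129 for the interaction. limma voom called 23 between cohorts. Cohort 1 alone gave 5 calls for drinkers, and 2 with the GC trend removed, which gave 1 between cohorts and 0 for the interaction over all animals. Of 848 alternative values of the quantified members, 807 kept their direction and their side of the threshold, and 40 changed sign. In cohort 2 alone, drinkers against controls were at 0.0017 for ARRB1, 0.0661 for GRK2, 0.0783 for GRK3 and -0.35 for GRK6, and at 0.0495 for GRK2, 0.0957 for GRK3 and -0.385 for GRK6 with the GC trend removed. GRK6 was at -0.0082 in limma. With the GC trend removed, ARRB1 was at 0.0268 in heavy drinkers against controls and GRK3 at 0.0121 in very heavy against heavy drinkers. With animals left out in turn, drinkers against controls ranged from -0.0621 to 0.0664 for GRK3 and from -0.0734 to 0.085 for GRK6, heavy drinkers against controls from -0.0592 to 0.0323 for ARRB1 and from -0.157 to 0.025 for GRK3, very heavy drinkers against controls from -0.161 to 0.033 for GRK3, very heavy against heavy drinkers from -0.109 to 0.0855 for GRK3, and cohort 2 against cohort 1 from -0.196 to 0.0168 for GRK6. No correlation pair was called under any setting. ARRB2 and GRK5 were at 0 in 23 animals each, the cause of which was not tested, and 3 controls limit cohort 2.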
